A study of Mus musculus with 2 samples.

Results

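Vitamin A reaches the gut wall as retinol, and the stroma can store it, activate it or destroy the product. Lrat esterifies retinol for storage, Rdh10 oxidises retinol to retinal and Dhrs3 reduces retinal back to retinol. The aldehyde dehydrogenases Aldh1a1, Aldh1a2 and Aldh1a3 convert retinal irreversibly to retinoic acid, which Crabp1 binds in the cytoplasm, Cyp26b1 degrades and the nuclear receptor encoded by Rarb responds to. In the intestine, retinoic acid made by stromal, epithelial and dendritic cells is known for imprinting gut homing on lymphocytes, and the small intestine is richer in it than the colon.

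The 9 genes named above were followed across the stroma of grafted mouse intestine. They were chosen by symbol as the core of retinoid storage, synthesis, binding, degradation and response, and all 9 were found among the 28692 gene features of the count matrices, none under a duplicated symbol. Embryonic small intestine (SI) or large intestine (LI, colon) of EYFP (C57BL/6) mice, which carry a yellow fluorescent protein, had been grafted below the capsule of the kidney in adult WT hosts and recovered 4 weeks later. Graft-derived mesenchymal stromal cells of both organs went through the same sort, on live YFP+ Itgb1+ cells negative for CD45, Ter119, BP3, CD31, EpCAM and L1CAM, a sort meant to leave out blood, endothelial, epithelial and glial cells. A few remained: 45 LI and 21 SI cells clustered by immune markers and 46 SI cells by epithelial markers, and the latter gave 88 of 3571 SI Aldh1a1 UMIs (2.46%). Each graft type gave 1 10x Genomics library, with no replicate, so no difference below was tested and every interval is a 95% counting interval that says nothing of variation between grafts.

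Of 11568 LI and 9631 SI barcodes, 8882 and 7259 were retained as cells with at least 500 genes, at most 10% mitochondrial UMIs (unique molecular identifiers) and a low doublet score, with a median of 5146.5 and 5547 UMIs. The libraries shared 26 barcodes. Male cells, told by Y-linked transcripts without Xist, made up 9.09% of LI and 24.3% of SI cells, so each library held cells of both sexes. Whether the male and female cells came from different embryos or in part from the host was not tested. Levels below are counts per 1e6 UMIs (CPM) pooled over the cells of a class, which can be compared between classes and grafts for 1 gene but not between genes. A ratio is the log2 of LI over SI after adding 1 CPM, and a gene counts as higher in a graft where it reaches 10 CPM in 1 library and the ratio is at least 1 in size.

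Classes were clusters built without the retinoid genes and named by marker lists, except that mesothelial-like cells were gated cell by cell on at least 3 of 7 markers. The SI ones came out of the Angptl7 Ctla2a cluster. Fgfr2 FB-like (2094 LI and 1116 SI cells), PDGFRAhi FB-like (651 and 335), Pi16 FB-like (368 and 994), MHC class II FB-like (527 and 469), pericyte-like (528 and 731) and SMC-like cells (smooth muscle, 405 and 430) were found in both grafts, where FB stands for fibroblast. Other clusters are called by their leading genes. Of these, Lsamp Fmo2 FB (768 and 915 cells), Kcnn3 Jam2 FB (710 and 759) and Rcan2 Sorbs2 cells (84 and 486) were shared, Myoc Lpl FB (1264), Areg Ttyh1 FB (559) and Lcn2 Hand1 cells (136) came from LI, and Wif1 Col7a1 FB (467) and Angptl7 Ctla2a cells (167) from SI. Interstitial cells of Cajal (ICC-like, 266 LI and 32 SI cells) and mesothelial-like cells (30 and 21) were too few in at least 1 graft for the counts by class. Of the marker lists, all 8 PDGFRAhi FB, all 7 pericyte, all 7 SMC and all 6 ICC markers reached 10 CPM in their class in both grafts, and in the fibroblast classes none of the 6 endothelial and none of the 5 epithelial markers did. The lists were not exclusive to their classes. All 6 ICC markers also reached 10 CPM in LI Lcn2 Hand1 cells (summed to 1518 CPM, against 5123 CPM in LI ICC-like cells), and all 7 pericyte markers in Rcan2 Sorbs2 cells of both grafts. The Fgfr2 FB markers summed higher in PDGFRAhi FB-like cells of LI, at 13768 CPM, than in Fgfr2 FB-like cells, at 10586 CPM, and in LI Pi16 FB-like cells the SMC markers, at 2901 CPM, exceeded the Pi16 FB markers, at 1917 CPM. Markers of pericytes summed to between 88.4 and 607 CPM in the LI fibroblast classes and between 266 and 1228 CPM in those of SI. Immunoglobulin transcripts (Igkc, Igha, Jchain) were among the leading genes of the SI Fgfr2 FB-like cluster, and hemoglobin transcripts among those of SI Lsamp Fmo2 FB, whose erythroid markers summed to 245 CPM against 0 CPM in LI. Their part in the results was not tested.

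The sequence just before the transcription start can hold sites that tie a gene to the pathway it serves. Retinoic acid receptors are known to bind direct repeats of a 6-base half-site set 5 bases apart. RefSeq promoters (GRCm38.p6, 250 bases before to 50 after a start) were on hand for 7 of the 9 members at 10 starts, Rdh10 and Aldh1a3 being without one. The promoters of 3 members whose levels differ by graft and class are shown as the 100 bases before the start, 5′ to 3′ on the strand of the gene. That of Rarb is at chr14:16575477-16575576 (minus strand), that of Lrat at chr3:82903975-82904074 (minus strand) and that of Aldh1a2 at chr9:71215689-71215788 (plus strand). Capitals mark the 2 half-sites of the repeat in Rarb and a TATA box in Lrat, and nothing was marked in Aldh1a2.
Rarb: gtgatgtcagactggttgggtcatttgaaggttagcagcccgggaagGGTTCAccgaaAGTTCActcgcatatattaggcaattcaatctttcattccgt
Lrat: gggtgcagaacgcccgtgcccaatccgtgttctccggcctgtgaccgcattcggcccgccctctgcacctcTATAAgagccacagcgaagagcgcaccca
Aldh1a2: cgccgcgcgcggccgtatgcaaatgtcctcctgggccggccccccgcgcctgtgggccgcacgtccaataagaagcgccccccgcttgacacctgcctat
The repeat was searched on both strands with AGGTCA or AGTTCA as a half-site, the forms with G in first place, GGGTCA and also GGTTCA, being allowed. It begins 53 bases before the Rarb start, and 32 of 32851 promoters in the table (0.0974%) hold such a repeat with 5 bases between. With 2 bases between, 88 promoters (0.268%) hold one, and with 1 base 73 do (0.222%), none of them a member's. TATAA or TATATA in the last 50 bases before the start, on the strand of the gene, is found in 1796 promoters (5.47%), that of Lrat among them at 29 bases before its start. These are matches of letters, and no binding was measured.

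**Figure D1:**
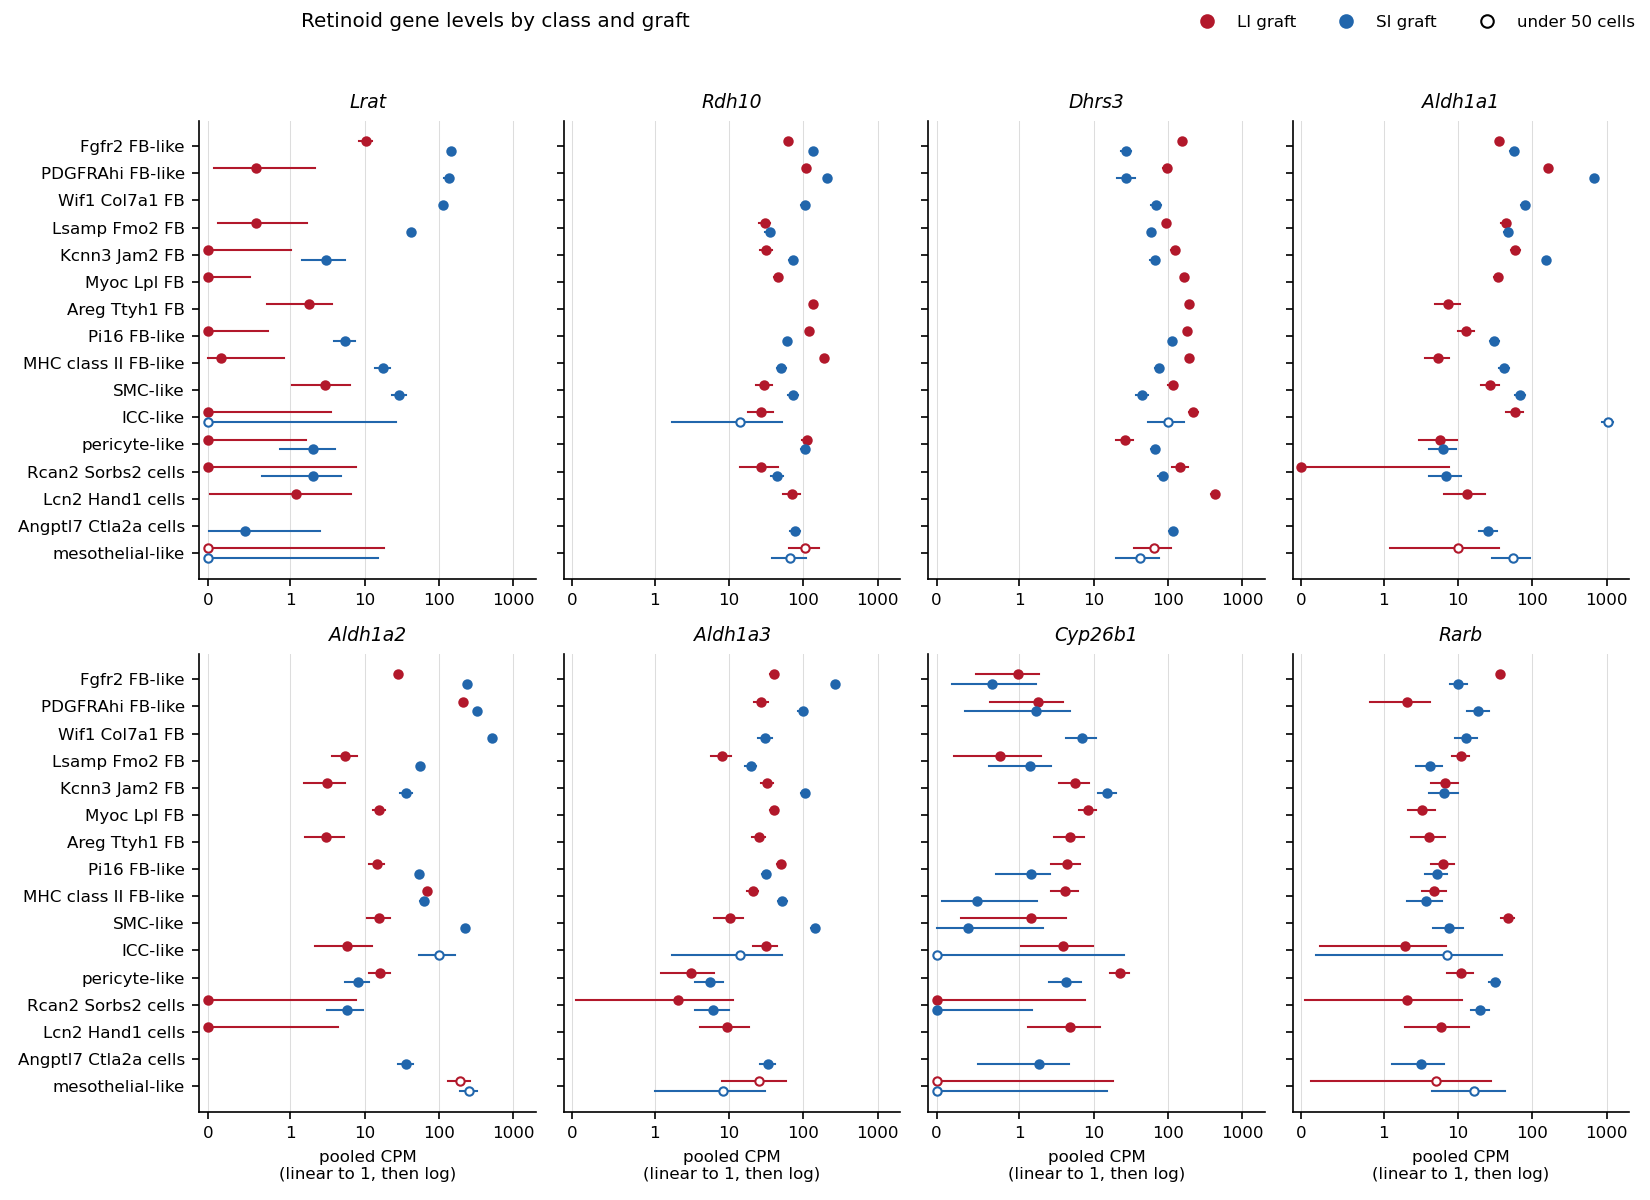
Pooled level of 8 retinoid genes (CPM, axis linear near 0 and logarithmic above) in each stromal class of the LI graft (red) and SI graft (blue). Points are the single library's value with its 95% Poisson interval, and open points are classes under 50 cells. Lrat lies above 100 CPM in 3 SI fibroblast classes and at or below 10.4 CPM in every LI class, while Aldh1a1 and Aldh1a2 are highest or next to highest in PDGFRAhi FB-like cells of both grafts among classes of at least 50 cells.

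Lrat, the enzyme of retinyl ester storage, was a gene of a few SI fibroblast classes. In SI it reached 145 CPM (135 to 154) in Fgfr2 FB-like cells, 134 CPM (118 to 152) in PDGFRAhi FB-like cells and 114 CPM (102 to 128) in Wif1 Col7a1 FB, and the interval of PDGFRAhi FB-like cells overlapped both others. Among the other named SI classes of at least 50 cells the next, Lsamp Fmo2 FB, stood at 42.6 CPM (37.7 to 47.9). Cells of low depth, which were given no type, had 58.9 CPM (242 cells, 25 UMIs), and 28 cycling cells 70.9 CPM. In LI the highest class was again Fgfr2 FB-like, at 10.4 CPM (8.49 to 12.6), and it held 105 of the library's 127 Lrat UMIs, or 82.7%. The SI Fgfr2 FB-like cells held 44.1% of the SI UMIs of the gene.

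The graft difference of Lrat was largest in PDGFRAhi FB-like cells, where 2 UMIs from 651 LI cells stood against 243 UMIs from 335 SI cells, a ratio of -6.41 (-6.99 to -5.41). It was -4.79 in Lsamp Fmo2 FB, on 3 LI UMIs, and -3.68 (-3.96 to -3.40) in Fgfr2 FB-like cells. In MHC class II FB-like cells 1 LI UMI stood against 72 in SI, which gave -3.99 (-4.22 to -3.20). Except for Fgfr2 FB-like cells, these classes reached 10 CPM through SI alone, so that a class counted at all only where SI was high. Outside the fibroblasts, SMC-like cells stood at 2.91 CPM in LI (6 UMIs) and 29.1 CPM (23.0 to 36.4) in SI, a ratio of -2.95 (-3.92 to -1.97).

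Lrat was seen in many cells of its SI classes, not in a few with high counts. It was detected in 38.7% of SI Fgfr2 FB-like cells against 3.25% in LI. With each cell thinned to 2000 UMIs the shares were 21.8% (19.3 to 24.3) and, in LI, between 1.43% and 2.71%. As a low class to set beside this, SI pericyte-like cells had Lrat in 0.467% of thinned cells (0.0963 to 1.36). Their median depth was 4238 UMIs against 5357 in SI Fgfr2 FB-like cells. SI cells of immune markers stood higher, at 25.4 CPM (3 UMIs), and those of epithelial markers at 22.1 CPM (12 UMIs). Both values lie above the 17.5 CPM of SI MHC class II FB-like cells, and the level of free RNA was not measured. No Lrat UMI was seen in 528 LI pericyte-like cells, which, taken as 3 cells of the total, allows a share of up to 0.568% of cells with a UMI (0.696% by the exact interval) and does not limit cells that express the gene below detection. The same was true of 1264 Myoc Lpl FB cells of LI (up to 0.237%, exact 0.291%), 710 Kcnn3 Jam2 FB cells of LI (0.423%, exact 0.518%) and 368 Pi16 FB-like cells of LI (0.815%, exact 0.997%). SI Pi16 FB-like cells had 5.39 CPM, nearly all from 1 of their 2 clusters, led by Stmn4, at 12.3 CPM against 0.872 CPM in the cluster led by Pi16.

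The 2 interconversion enzymes ran differently from storage and from each other. Rdh10 was present in every class of at least 50 cells, from 26.6 to 187 CPM in LI and from 35.2 to 209 CPM in SI, with its highest class not the same in the 2 grafts. In SI it was highest in PDGFRAhi FB-like cells at 209 CPM (188 to 231), followed by Fgfr2 FB-like cells at 135 CPM (126 to 144), the same 2 classes that led for Lrat. In LI it was highest in MHC class II FB-like cells at 187 CPM (176 to 198), followed by Areg Ttyh1 FB at 136 CPM (125 to 148), and PDGFRAhi FB-like cells stood at 109 CPM (98.5 to 121).

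The ratio of Rdh10 thus changed sign from class to class. It was 1.87 (1.66 to 2.08) in MHC class II FB-like cells and 0.97 (0.79 to 1.15) in Pi16 FB-like cells, and -1.09 (-1.24 to -0.94) in Fgfr2 FB-like, -1.19 (-1.52 to -0.87) in Kcnn3 Jam2 FB and -1.26 (-1.69 to -0.85) in SMC-like cells. In female cells alone the ratios of Fgfr2 FB-like and SMC-like cells fell short of the fold, at -0.89 and -0.73, and SMC-like cells gated one by one gave -0.04. In pericyte-like cells, at 109.9 and 104 CPM, the interval of the ratio ran from -0.14 to 0.31. Male cells were 62.4% of LI MHC class II FB-like and 54.0% of Areg Ttyh1 FB cells, the highest in Rdh10, against 0.0478% of Fgfr2 FB-like cells (1 cell). Within LI MHC class II FB-like cells Rdh10 stood at 183 CPM (170.1 to 197) in 329 male and 95.5 CPM (63.9 to 137) in 24 female cells, and the ratio was 0.85 in female cells (-0.10 to 1.87), short of the fold, and 1.95 in male cells. In LI pericyte-like cells it was 297 CPM (219 to 394) in 32 male and 85.3 CPM (72.8 to 99.4) in 439 female cells, while in SI pericyte-like cells male and female intervals overlapped, at 101 and 122 CPM.

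Dhrs3, which opposes Rdh10 and is known as a retinoic acid responsive gene, was the one enzyme of the set with a ratio above 0 in all 6 compared fibroblast classes. Fgfr2 FB-like cells had 152 CPM (145 to 160.3) in LI and 27.1 CPM (23.1 to 31.6) in SI, a ratio of 2.45 (2.22 to 2.68). PDGFRAhi FB-like cells had 96.4 and 27.6 CPM, a ratio of 1.77 (1.34 to 2.21). The ratio was 1.34 in both SMC-like cells (1.02 to 1.66) and MHC class II FB-like cells (1.16 to 1.52). Pericyte-like cells went the other way, with 26.5 CPM (20.3 to 34.0) in LI and 67.3 CPM (59.5 to 75.9) in SI, a ratio of -1.31 (-1.72 to -0.92).

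Fgfr2 FB-like and pericyte-like cells changed places in the order of Dhrs3 over the classes. In SI its lowest classes were Fgfr2 FB-like and PDGFRAhi FB-like cells, the 2 with the most Lrat, and their intervals overlapped. Its highest SI classes were Angptl7 Ctla2a cells at 118 CPM (104 to 133) and Pi16 FB-like cells at 112 CPM (104 to 119.6), which did not differ beyond counting error. Pi16 FB-like and MHC class II FB-like cells were near the top of the shared classes in both grafts. In LI the lowest class was pericyte-like, and the highest was Lcn2 Hand1 cells at 424 CPM (381 to 470.3), detected in 83.8% of 136 cells, well above ICC-like cells at 220.5 CPM (193 to 251). Of the Lcn2 Hand1 cells 62.5% were male and 1 cell was female, so the sexes could not be compared there.

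**Figure D2:**
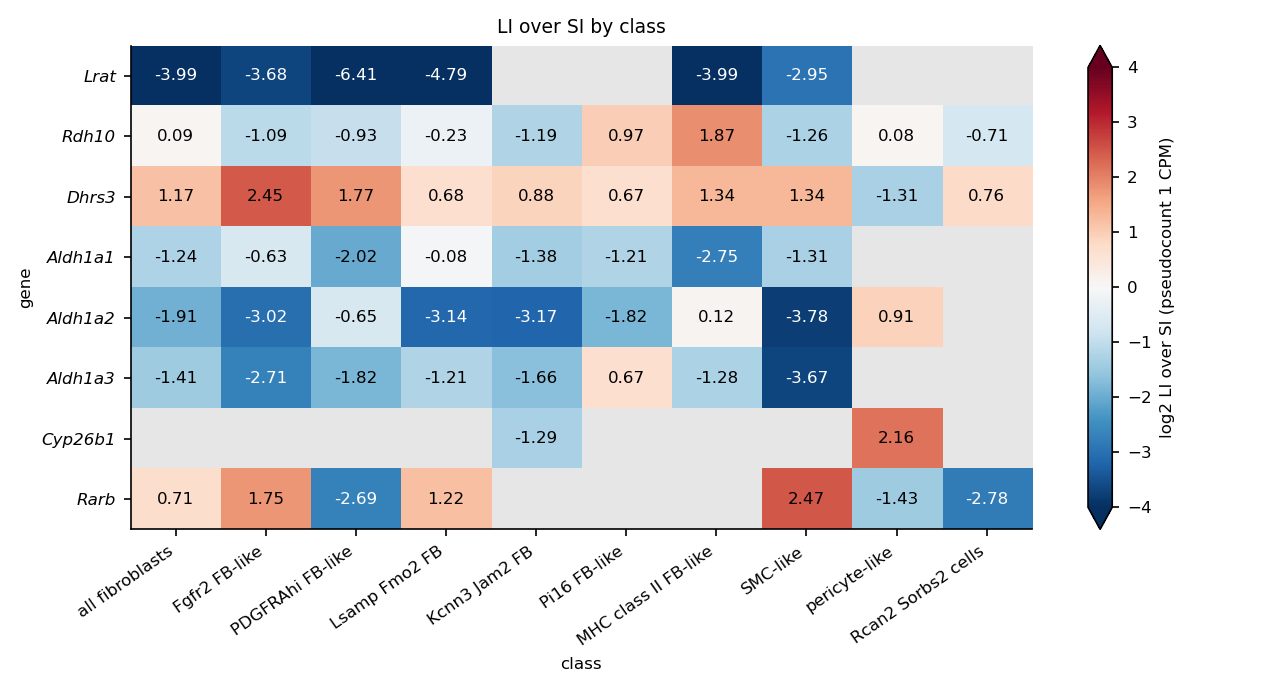
Log2 ratio of LI over SI CPM (pseudocount 1 CPM) for the retinoid genes (rows) in each class found in both grafts (columns), red for higher in LI and blue for higher in SI, grey where neither library reached 10 CPM. Lrat and the Aldh1a genes are blue in Fgfr2 FB-like, PDGFRAhi FB-like and SMC-like cells, Dhrs3 is red there, and pericyte-like cells show the reverse for Dhrs3.

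The 3 retinal dehydrogenases had different but overlapping patterns over the classes. Among classes of at least 50 cells, Aldh1a1 was highest in PDGFRAhi FB-like cells of both grafts, at 164 CPM (151 to 178) in LI and 666 CPM (629 to 705) in SI, a ratio of -2.02 (-2.16 to -1.87). It was detected in 41.0% of those LI cells and 86.3% of those SI cells, or 24.1% (20.8 to 27.7) and 69.0% (63.3 to 74.2) after thinning. Kcnn3 Jam2 FB came next in both grafts, at 58.6 CPM (51.0 to 67.1) and 154 CPM (141 to 168). In LI that interval overlapped the one of ICC-like cells, at 58.0 CPM (44.3 to 74.7). The pericyte-like cells had 5.65 and 6.30 CPM and the Rcan2 Sorbs2 cells 0 and 6.93 CPM. Thus the highest of these classes was shared by the grafts while the level was not, the ICC-like cells of SI being left out as under 50 cells.

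ICC-like cells, the pacemaker cells of the muscle layers, carried the highest Aldh1a1 level of the SI graft. There 29 of 32 cells (90.6%) had the transcript and the pooled level was 1037 CPM (876 to 1219). In LI, 46 of 266 ICC-like cells (17.3%) had it at 58.0 CPM (44.3 to 74.7), a ratio of -4.14 (-4.59 to -3.70). With 32 SI cells this is the value of few cells of 1 library.

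Aldh1a2, known from the embryo as the main retinoic acid producing enzyme of mesoderm, was highest in Wif1 Col7a1 FB of SI, at 509 CPM (483 to 537) in 77.7% of cells. PDGFRAhi FB-like cells followed in SI at 329 CPM (303 to 357) and led in LI at 209.5 CPM (194 to 226), and their ratio was -0.65 (-0.81 to -0.49). The ratio was larger in other classes. Fgfr2 FB-like cells had 28.5 CPM (25.3 to 31.9) in LI and 238 CPM (225 to 250.2) in SI, a ratio of -3.02 (-3.20 to -2.84). SMC-like cells had 15.5 CPM (10.6 to 21.9) and 226 CPM (208 to 245), a ratio of -3.78 (-4.30 to -3.29).

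The ratio of Aldh1a2 was -3.17 (-3.90 to -2.44) in Kcnn3 Jam2 FB and -3.14 (-3.64 to -2.65) in Lsamp Fmo2 FB, at lower levels. MHC class II FB-like cells, at 69.3 and 63.6 CPM, had an interval from -0.10 to 0.35 and so no difference beyond counting error. Mesothelial-like cells expressed it in both grafts, at 189 CPM (134 to 259) in 30 LI cells and 249 CPM (190.2 to 321) in 21 SI cells, and those intervals overlapped. Most of the LI cells came from a cluster of 36 with kidney tubule genes (Slc34a1, Miox, Kap) among its leading genes, whose part in the values was not tested.

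Aldh1a3 was highest in Fgfr2 FB-like cells in SI, at 264 CPM (251 to 277), with SMC-like cells next at 142 CPM (128 to 157) and Kcnn3 Jam2 FB at 104 CPM (93.3 to 115). In LI no class exceeded the 50.6 CPM (44.6 to 57.2) of Pi16 FB-like cells, whose interval met that of Myoc Lpl FB at 39.9 CPM. The ratio was -2.71 (-2.86 to -2.55) in Fgfr2 FB-like and -3.67 (-4.30 to -3.08) in SMC-like cells. Pi16 FB-like cells were an exception, with 0.67 (0.42 to 0.93) in favour of LI.

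SI SMC-like cells were of 2 clusters that differed in these genes. The 328 cells of the cluster led by Npnt had Aldh1a2 at 289.6 CPM (265 to 316), Aldh1a3 at 183 CPM (164 to 204) and Lrat at 41.5 CPM (32.6 to 52.0), and Rdh10 at 94.7 CPM (80.9 to 110.1). The 102 cells of the cluster led by Actg2, a smooth muscle actin, had 93.3 CPM (74.0 to 116), 54.8 CPM (40.3 to 72.9) and 3.50 CPM (0.721 to 10.2), and Rdh10 at 25.7 CPM (16.1 to 38.8). Even the lower of the 2 exceeded the 405 LI SMC-like cells in Aldh1a2 and Aldh1a3, while its Lrat and Rdh10 intervals overlapped theirs, which for Rdh10 was 29.6 CPM (22.6 to 38.0).

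**Figure D3:**
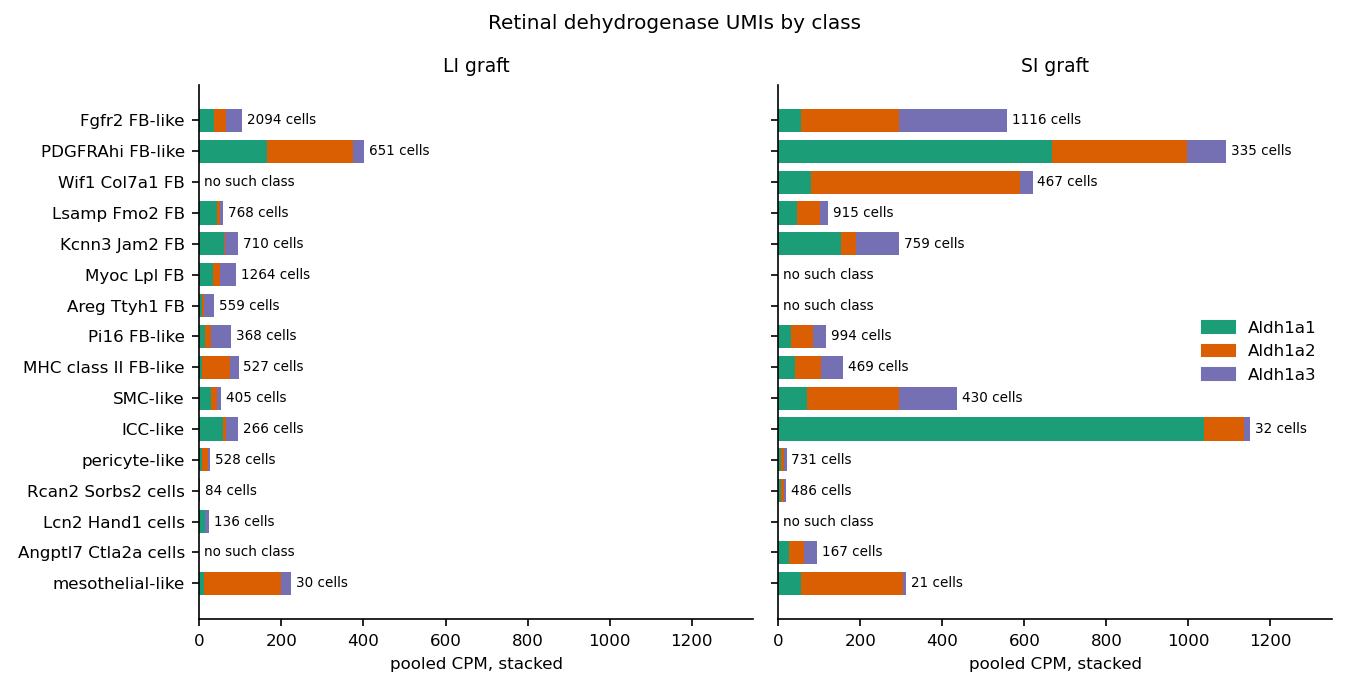
Summed CPM of Aldh1a1, Aldh1a2 and Aldh1a3 stacked by gene in each class of the LI and SI grafts (linear axis from 0). The 32 SI ICC-like cells total 1150 CPM and SI PDGFRAhi FB-like cells 1093 CPM, both mostly Aldh1a1, and Wif1 Col7a1 FB total 620 CPM, mostly Aldh1a2, while pericyte-like cells stay under 25 CPM in both grafts.

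Added together, which sums UMIs of the 3 genes and not enzyme activity, the dehydrogenases reached 400 CPM in LI and 1093 CPM (1045 to 1142) in SI PDGFRAhi FB-like cells. The few ICC-like cells of SI stood at 1150 CPM (980.0 to 1340), an interval that overlapped, and mesothelial-like cells at 224 CPM in LI and 312 CPM in SI. The sums were 104 and 558 CPM in Fgfr2 FB-like, 52.9 and 436 CPM in SMC-like and 24.8 and 19.9 CPM in pericyte-like cells. The mixture varied with the class: of these UMIs in SI, Aldh1a1 gave 61.0% in PDGFRAhi FB-like cells, Aldh1a2 gave 82.2% in Wif1 Col7a1 FB, and Aldh1a3 gave 47.4% in Fgfr2 FB-like cells. At 2000 UMIs a cell, 84.5% of SI PDGFRAhi FB-like cells (79.8 to 88.5) had at least 1 UMI of the 3 against 46.5% (42.6 to 50.5) in LI. In Fgfr2 FB-like cells the shares were 59.3% and 17.1%, and in SMC-like cells 53.0% and 8.33%. Pericyte-like cells, at 3.73% and 4.37%, and Rcan2 Sorbs2 cells, at 2.36% and 0%, were at the low end of these shares. The 3 genes summed to 169 CPM (103 to 261) in the 21 SI cells of immune markers and to 4.20 CPM in the 45 of LI.

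Crabp1, a binding protein that holds retinoic acid in the cytoplasm, was close to absent. All retained cells gave 10 UMIs in LI and 3 in SI, and no class of at least 50 cells exceeded 1.30 CPM. No ratio is given for it.

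Cyp26b1, which clears retinoic acid, was low in both grafts and present in few cells. It was highest in pericyte-like cells of LI, at 22.6 CPM (16.9 to 29.6), and in Kcnn3 Jam2 FB of SI, at 15.2 CPM. Pericyte-like cells of SI had 4.28 CPM (2.50 to 6.86), a ratio of 2.16 (1.45 to 2.87), and Kcnn3 Jam2 FB of LI had 5.61 CPM (3.43 to 8.67), a ratio of -1.29 (-1.99 to -0.60). In Fgfr2 FB-like cells it was 0.988 CPM in LI and 0.664 CPM in SI, on 10 and 4 UMIs. In male cells alone the ratio of pericyte-like cells turned to -1.90. The thinned shares were low as well, at 2.91% of LI pericyte-like cells and 3.08% of SI Kcnn3 Jam2 FB.

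Rarb, the receptor whose promoter holds the repeat shown above, changed direction with the class. It was highest in SMC-like cells of LI at 46.6 CPM (37.7 to 56.9), followed within counting error by Fgfr2 FB-like cells at 36.6 CPM (32.9 to 40.5). In SI the same classes had 7.57 CPM (4.62 to 11.7) and 10.1 CPM (7.75 to 13.0), which gave ratios of 2.47 (1.83 to 3.15) and 1.75 (1.39 to 2.13). With both libraries clustered together, where fewer than 50 Fgfr2 FB-like cells were left in 1 graft, that second ratio turned to -3.42, with an interval up to 0.81. The SI maximum was in pericyte-like cells at 31.0 CPM (25.8 to 37.0), against 10.9 CPM (7.03 to 16.0) in LI.

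PDGFRAhi FB-like cells had 2.06 CPM of Rarb in LI (7 UMIs) and 18.8 CPM (13.0 to 26.3) in SI, a ratio of -2.69 (-3.56 to -1.75). Rcan2 Sorbs2 cells, which carry SMC and pericyte markers, had 1 UMI in LI and 49 in SI, a ratio of -2.78 (-4.35 to -0.69). So the classes with the most Aldh1a UMIs in SI had Rarb both above (PDGFRAhi FB-like) and below (Fgfr2 FB-like, SMC-like) the LI level. Rarb spans chr14:16430839-16819156 and overlaps Top2b on the opposite strand (GRCm38, GENCODE vM21).

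**Figure D4:**
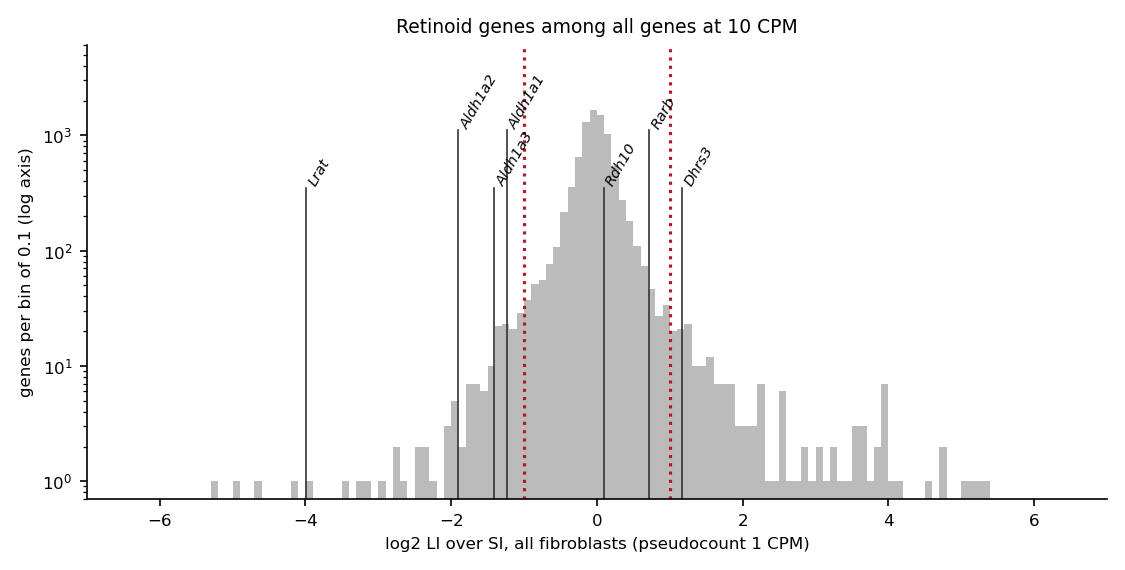
Distribution of log2 LI over SI ratios of 8630 genes with at least 10 CPM in the fibroblasts of 1 library (counts of genes on a logarithmic axis), with the retinoid genes that reach that level marked. Lrat lies at -3.99, near the far SI end, Aldh1a2, Aldh1a3 and Aldh1a1 follow, and Dhrs3 lies at 1.17 on the LI side.

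Against all genes, the members were often past the fold. Over all fibroblasts (6941 LI and 5055 SI cells), 7 of the 9 reached 10 CPM, Crabp1 and Cyp26b1 being too low. Of these 7, 4 were higher in SI, where 1.76% of the 8630 genes tested were, and 1 was higher in LI, where 2.05% were. Lrat reached 10 CPM through SI alone (2.65 CPM in LI, 56.8 in SI) and could be counted and ranked only on the SI side. Rarb reached it through LI alone (12.5 and 7.26 CPM). The median ratio of the 7 was -1.24 and that of all genes -0.02. Only 4 genes had a lower ratio than Lrat, 24 than Aldh1a2, 54 than Aldh1a3 and 89 than Aldh1a1, whereas 144 had a higher one than Dhrs3 and 278 than Rarb. Rdh10 stood at 0.09 (0.02 to 0.16) over all fibroblasts, with ratios on both sides of 0 in single classes. The sum also holds classes found in 1 graft only, and what set its value was not tested.

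Class by class, a member that reached 10 CPM in 1 graft only could be counted in favour of that graft alone. This held for all 4 counted in Lsamp Fmo2 FB, for Aldh1a2 and Cyp26b1 in Kcnn3 Jam2 FB, for Lrat in SMC-like, PDGFRAhi FB-like and MHC class II FB-like cells, for Aldh1a1 in MHC class II FB-like cells, for Cyp26b1 in pericyte-like cells and for Rarb in PDGFRAhi FB-like, SMC-like and Rcan2 Sorbs2 cells. In Fgfr2 FB-like cells 4 of 7 tested members were higher in SI (Lrat, Rdh10, Aldh1a2, Aldh1a3; 2.37% of all genes) and 2 in LI (Dhrs3, Rarb; 2.66%). PDGFRAhi FB-like cells had 4 of 7 higher in SI (Lrat, Aldh1a1, Aldh1a3, Rarb; 5.68% of all genes) and Dhrs3 in LI (5.03%). SMC-like cells had 5 of 7 higher in SI (all but Dhrs3 and Rarb; 3.62%) and those 2 in LI (3.21%). Kcnn3 Jam2 FB had 5 of 6 in SI (3.58%) and 0 in LI (3.96%). Lsamp Fmo2 FB had 3 of 7 in SI (2.46%) and 1 in LI (1.61%).

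MHC class II FB-like cells had 3 of 6 in SI (11.9% of all genes) and 2 in LI (7.97%), and Pi16 FB-like cells 2 of 5 in SI (10.1%) and 0 in LI (6.85%). The 2 of Pi16 FB-like cells were higher in different SI clusters. Aldh1a2 was 20.7 CPM in the cluster led by Pi16 and 104 CPM in that led by Stmn4, against 14.6 CPM in LI. Aldh1a1 was 39.2 and 18.2 CPM, against 12.8 CPM in LI, and its ratio changed sign at resolution 1.6. Pericyte-like cells had 2 of 5 in SI (Dhrs3 and Rarb, 2.72%) and 1 in LI (Cyp26b1, 2.70%). Rcan2 Sorbs2 cells had 1 of 3 in SI (Rarb, 10.8%) and 0 in LI (4.44%). The share of all genes past the fold was highest in Pi16 FB-like, MHC class II FB-like and Rcan2 Sorbs2 cells, so a member past it says least there.

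**Figure D5:**
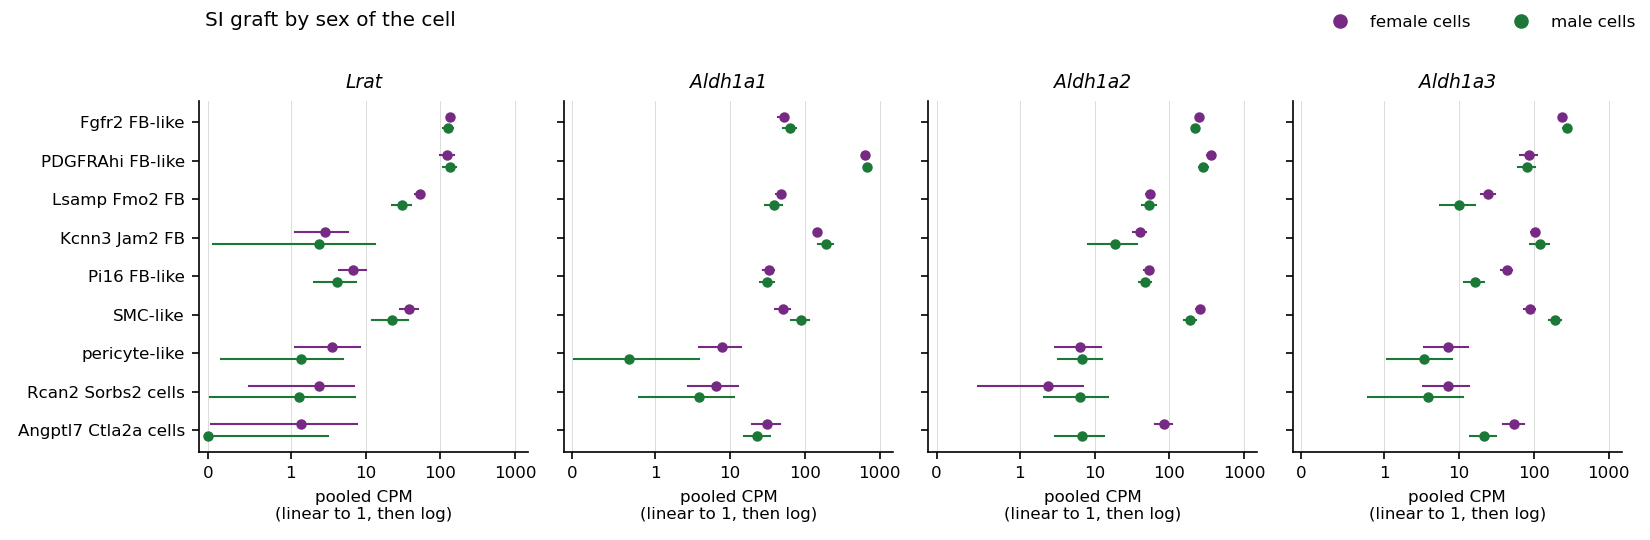
CPM of Lrat, Aldh1a1, Aldh1a2 and Aldh1a3 in female (purple) and male (green) cells of each SI graft class shown, with 95% Poisson intervals. The CPM axis is linear near 0 and logarithmic above. Female and male intervals overlap for Lrat and Aldh1a2 in Fgfr2 FB-like cells and for Aldh1a1 in PDGFRAhi FB-like cells.

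Male and female cells gave like values for Lrat and Aldh1a2 in SI Fgfr2 FB-like cells and for Aldh1a1 in SI PDGFRAhi FB-like cells. In SI Fgfr2 FB-like cells Lrat was 134 CPM (121 to 147) in 619 female and 126 CPM (109 to 145) in 252 male cells, and Aldh1a2 was 246 CPM (229 to 264) and 224 CPM (200.1 to 249). In SI PDGFRAhi FB-like cells Aldh1a1 was 629 CPM (572 to 691) in 136 female and 672 CPM (612 to 736) in 104 male cells. The intervals of these pairs overlapped. Both Lrat values lie below the 145 CPM of all SI Fgfr2 FB-like cells, which also include cells of unclear sex (20.4% of all SI cells). Wif1 Col7a1 FB could not be compared in this way, since 445 of its 467 cells were female and 1 was male. That cluster held 25.1% of the SI UMIs of Aldh1a2 and 15.7% of those of Lrat. Aldh1a3 in SI SMC-like cells did differ, with 88.1 CPM (73.8 to 104) in female and 193 CPM (159.7 to 230.0) in male cells, as did Dhrs3 in SI Pi16 FB-like cells, with 156 CPM (144 to 169) and 67.6 CPM (58.1 to 78.2). Within female cells alone the ratio of Lrat was -3.54 in Fgfr2 FB-like and -6.55 in PDGFRAhi FB-like cells, and that of Aldh1a2 in Fgfr2 FB-like cells -3.06. Over all fibroblasts in female cells Aldh1a1 fell short of the fold at -0.86 and Dhrs3 at 0.82.

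Whether members met in the same cell was read from thinned cells. Of SI Fgfr2 FB-like cells with an Lrat UMI, 48.9% (42.4 to 55.5) also had Aldh1a3, against 27.2% (24.3 to 30.4) of those without. For Aldh1a2 the shares were 35.4% (29.4 to 41.9) and 34.4% (31.2 to 37.7), which did not differ beyond counting error. Rdh10 was found in 28.7% (23.0 to 34.9) of the cells with Lrat and 17.96% of those without (15.4 to 20.7), intervals that did not meet. In SI PDGFRAhi FB-like cells the order for Rdh10 was the other way, at 27.0% with Lrat (16.6 to 39.7) and 33.5% without (27.4 to 40.03), and the intervals overlapped. In LI Fgfr2 FB-like cells, of which 40 had Lrat, Aldh1a3 was found in 5.0% with (0.611 to 16.9) and 7.35% without (6.23 to 8.60), again within counting error. In Wif1 Col7a1 FB, cells with Lrat had Aldh1a2 in 67.1% (55.8 to 77.1) and cells without in 51.3% (46.1 to 56.5), and these intervals met too. Rarb was found in 10.98% of the Wif1 Col7a1 FB cells with Lrat (5.14 to 19.8) and in 2.14% of those without (0.928 to 4.17), intervals that did not meet.

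By likeness of log2 level over 24 points (13 LI and 11 SI classes of at least 50 cells, sharing 2 libraries), the genes closest to each member were named among 11204. Lrat was most like Rbm46 (Pearson r 0.84), Mlxip (0.82) and Col6a5 (0.78), a collagen gene that also led an LI Fgfr2 FB-like cluster. Rbm46 is its neighbour: it lies 16.1 kilobases from Lrat (chr3:82892579-82903973, minus strand) on the same strand. Rbm46os overlaps Lrat on the opposite strand. Rbm46 was at 20.1 CPM in LI and 34.9 CPM in SI Fgfr2 FB-like cells, and at 17.98 and 46.4 CPM in PDGFRAhi FB-like cells. The 2 genes parted in LI PDGFRAhi FB-like cells, where Lrat was 0.589 CPM, and in SI pericyte-like cells, with Rbm46 at 17.6 CPM and Lrat at 2.02 CPM.

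Aldh1a1 was most like Atp8a1 (0.88), Twsg1 (0.88), which encodes an extracellular modulator of BMP, and Zfp947 (0.86). Aldh1a2 was most like Lrrc55 (0.88), Pvrl3 (0.79) and Hmcn1 (0.78), and Aldh1a3 like Wdr66 (0.81), Il1b (0.81) and Coa5 (0.81). Rdh10 was most like Sh3glb1 (0.80), Myl12a (0.80) and Dctn3 (0.79), and Dhrs3 like Lgals3 (0.81), Mkx (0.74) and Acat3 (0.73). Cyp26b1 was most like Ptprb (0.78), Bax (0.72) and Fam212a (0.71), and Polr3k (0.71) and Ttc7b (0.65) were among the genes most like Rarb.

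Summed over all fibroblasts, most other genes of the pathway stayed under the fold. Of 51 further genes for uptake, binding, ester handling, interconversion, oxidation and degradation, nuclear receptors and response, 22 reached 10 CPM in fibroblasts, with 2 higher in LI (2.05% of all genes) and 0 higher in SI (1.76%). Their median ratio was -0.04. More passed it in the classes where many genes did. In MHC class II FB-like cells 7 of 22 were higher in SI (Pnpla2, Ces1d, Adh1, Dhrs7, Rxra, Tgm2 and Rarres2; 11.9% of all genes) and 3 in LI (Rbp4, Crabp2 and Fabp5; 7.97%). In Pi16 FB-like cells 4 of 22 were higher in SI (Lpl, Pnpla2, Adh1 and Meis2; 10.1%) and 3 in LI (6.85%), and in Rcan2 Sorbs2 cells 4 of 21 were higher in SI (10.8%). In Fgfr2 FB-like cells 0 of 22 were higher in SI (2.37%) and 2 in LI (2.66%). The 2 past the fold over all fibroblasts were Crabp2, which delivers retinoic acid to its nuclear receptor, at 26.6 CPM (25.1 to 28.2) in LI and 0.779 CPM (0.504 to 1.15) in SI, and Rbp4, the secreted carrier of retinol, with a ratio of 1.63 (1.54 to 1.72). Cyp26a1, a relative of Cyp26b1, stayed at 0.494 CPM in LI and 0 in SI, and Stra6, the retinol uptake receptor, at 0.381 and 0.592 CPM. Here too a gene that reached 10 CPM in 1 graft only could be counted for that graft alone. This held at least for Crabp2 above, and for Crabp2 in Pi16 FB-like, Rbp4 in SMC-like and Rarg in Fgfr2 FB-like cells below, all through LI.

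Crabp2 came mostly from Pi16 FB-like cells, at 162 CPM (151 to 173) in LI and 1.32 CPM (0.631 to 2.42) in SI, a ratio of 6.14 (5.57 to 6.65). The 2 classes had different leading genes, among them Cthrc1, Prg4 and Ptx3 in LI and Pi16, Igfbp6 and Stmn4 in SI. Rbp4 was high in PDGFRAhi FB-like cells of both grafts, at 597 CPM (571 to 624) in LI and 465 CPM (434 to 498) in SI. Its largest graft ratios were in Fgfr2 FB-like cells, at 219 and 17.3 CPM (ratio 3.59, 3.32 to 3.87), and in SMC-like cells, at 370.1 and 9.84 CPM (ratio 5.10, 4.58 to 5.65). Rbp4 was also past the fold in LI in MHC class II FB-like cells (1.96, 1.47 to 2.46), Lsamp Fmo2 FB (1.51, 1.16 to 1.87) and Pi16 FB-like cells (1.41), at levels below 40 CPM.

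Rarg, a second retinoic acid receptor, was also past the fold in LI Fgfr2 FB-like cells, at 31.0 CPM (27.7 to 34.7) against 4.82 CPM (3.23 to 6.92) in SI, a ratio of 2.46 (1.99 to 2.95), the same direction as Rarb there. The same held in SMC-like cells, with a ratio of 1.46 (0.86 to 2.08). In PDGFRAhi FB-like cells Rarg was higher in LI, with 1.42 (0.81 to 2.06), where Rarb was higher in SI.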

How the data were processed

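Cells of 1 LI and 1 SI graft library were analysed. The matrices hold raw UMI counts per gene and cell, which the authors deposited after Cell Ranger 3.1.0 (mm10); the notes also name Seurat 3. Whether a library used the 3′ or the 5′ kit is not given in the sources used here, so a kit difference cannot be told apart from the graft. The members and lists were chosen with earlier results of these data known, and the thresholds that name classes were set after seeing the clusters.

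Cells had to have 500 genes or more and no more than 10% of their UMIs from mitochondria. Scrublet's own threshold marked 0 LI and 1 SI barcodes, so doublets were taken as the top scores, at 0.8% per 1000 barcodes (1071 and 742 marked). Each library was clustered in Seurat 5.3.0 (2000 variable genes without the retinoid genes, 30 principal components, resolution 0.8, cell cycle regressed). Counts were pooled per class and divided by total UMIs to CPM. Levels carry exact Poisson intervals, shares exact Clopper-Pearson intervals (a share of 0 also a limit of 3 cells of the total) and ratios exact binomial intervals of the split of UMIs between libraries. Shares were thinned to 2000 UMIs a cell, leaving out shallower cells, which kept 8187 LI and 6747 SI cells. With 1 library a group there was no test. The ratio and interval code was tested on simulated data. Named genes were the 9 members, pathway genes past the fold or at 100 CPM in a class, and the 3 genes most like each member. A gene of the likeness lists and a gene of the pathway lists are not reported here. A total of 18 alternatives were run, TMM scaling with edgeR 4.0.16 among them.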

Additional observations from a re-analysis of the deposited data

Results flagged for a closer look

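Some members were higher in LI in one class and higher in SI in another, with intervals on either side of 0, and these differences between classes were not tested. Rdh10 had a ratio of 1.87 in MHC class II FB-like cells and -1.26 in SMC-like cells, a gap of 3.13 on the log2 scale. In female cells alone these ratios were 0.85 and -0.73, both short of the fold, and SMC-like cells gated one by one gave -0.04. Of the 2 SI SMC-like clusters only that led by Npnt, at 94.7 CPM (80.9 to 110.1), lay above the 29.6 CPM of LI, and the one led by Actg2 stood at 25.7 CPM (16.1 to 38.8). For Dhrs3 the gap was 3.76, between 2.45 in Fgfr2 FB-like and -1.31 in pericyte-like cells. For Cyp26b1 it was 3.45, between 2.16 in pericyte-like cells and -1.29 in Kcnn3 Jam2 FB, all at low levels. Rarb had the widest gap of the 4, 5.26, between 2.47 in SMC-like and -2.78 in Rcan2 Sorbs2 cells, the latter with 1 LI UMI.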

How the results depend on the processing

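No paired analysis was possible because each graft type was 1 library. The number of members higher in LI over all fibroblasts, 1, became 0 in female cells only and 2 in male cells only, and the number of other pathway genes higher in SI, 0, became 3 in male cells only. The 4 members higher in SI stayed 4 except in female cells, where they were 3. Of 776 ratios recomputed for single members and classes, 609 stayed within their interval and 164 moved beyond it. A change of sign was counted apart only for the 37 of 50 ratios past the fold with an interval off 0. There were 3 such changes: Aldh1a1 in Pi16 FB-like cells at resolution 1.6 (0.10), Rarb in Fgfr2 FB-like cells with both libraries clustered together (-3.42) and Cyp26b1 in pericyte-like cells in male cells only (-1.90). Sign changes of the other ratios are within the 609 and 164. The cause was not tested. The moves were uneven: 26 of 50 with cells gated singly, 24 of 50 in female cells and 23 of 31 in male cells. A minimum of 5 CPM does not enter a ratio, so its 50, which are among the 609, could not move. Lrat in Fgfr2 FB-like cells ran from -4.33 to -2.90 over the alternatives, and Rdh10 over all fibroblasts from -0.35 to 1.15. Lrat, Aldh1a1 and Aldh1a2 had their highest of 7 broader classes in common between the grafts. When both libraries were clustered together, Dhrs3 took the place of Lrat among 5 classes, with the mean of CPM per cell only Aldh1a1 and Aldh1a2 remained, in female cells Dhrs3 joined the 3 over 6 classes, and in male cells, with 2 classes, the genes were Rdh10, Dhrs3 and Aldh1a2. At this depth, 0 UMIs in a class of 32 cells allows, taken as 3 cells of the total, a share of up to 9.38% of cells with a UMI (10.9% by the exact interval), and does not limit expression below detection.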

Other observations

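Among other genes of retinoid handling, Lpl, the lipase that releases lipids from circulating particles, reached 1473 CPM (1445 to 1501) in Myoc Lpl FB of LI. In Pi16 FB-like cells it was 89.7 CPM (81.7 to 98.4) in LI and 368 CPM (355 to 382) in SI. Meis2, a homeobox gene induced by retinoic acid in the embryo, was high in ICC-like cells of both grafts, at 1023 CPM (962 to 1087) and 995 CPM (837 to 1173), and in Lcn2 Hand1 cells of LI at 1234 CPM (1160.1 to 1311). Fabp5, a fatty acid binding protein that can also carry retinoic acid, stood at 201 CPM (183 to 220.3) in LI and 409.7 CPM (390.0 to 430.1) in SI pericyte-like cells. Tgm2, a transglutaminase known to respond to retinoic acid, was 117 CPM (108 to 126) in LI and 374 CPM (356 to 394) in SI MHC class II FB-like cells. Rarres2, which encodes the chemoattractant chemerin, peaked in LI Fgfr2 FB-like cells at 1353 CPM (1330.4 to 1376), and Nrip1, a nuclear receptor corepressor, in LI PDGFRAhi FB-like cells at 157 CPM (144 to 171). The dehydrogenases Adh5 and Dhrs7 were highest at 121 CPM in ICC-like and 149 CPM in SMC-like cells, both of LI. Each interval overlapped that of the next LI class, SMC-like at 114 CPM for Adh5 and ICC-like at 117 CPM for Dhrs7.

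In Angptl7 Ctla2a cells of SI, Aldh1a2 was 84.3 CPM (64.6 to 108) in 59 female and 6.86 CPM (2.96 to 13.5) in 81 male cells.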
